A study of Mus musculus with 6 samples.

Results

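The genes described here are 6 transcription factors of the trophectoderm, *Cdx2*, *Tfap2c*, *Gata3*, *Tead4*, *Elf5* and *Hand1*, and 4 keratins of simple epithelia, *Krt8*, *Krt18*, *Krt19* and *Krt7*. They were chosen by symbol, and all 10 were found among the 23420 symbols of the count tables. RNA-seq was performed on E14 cells, a male line of mouse embryonic stem cells (ESCs), in 2 genotypes, wild type (WT) and *Patz1* knockout (KO), with 3 libraries each. Both were kept in the pluripotent state with LIF and 2i, the inhibitors of MEK1/2 and GSK3, so the cells were not directed to the trophoblast fate. The KO carried a CRISPR/Cas9 disruption of *Patz1*, the gene of a zinc finger protein that binds G-rich DNA and boundaries of chromatin domains. The series names 1 line for each genotype, several KO clones were made in the study, and the clone or clones behind these libraries are not given, so effects of the genotype and of a clone cannot be told apart. Ribosomal RNA was removed from total RNA before stranded libraries were made.

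The trophectoderm is the outer epithelium of the blastocyst and forms the placenta, while ESCs derive from the inner cells and seldom take this fate. TEAD4, with its coactivator YAP1, switches on *Cdx2* and *Gata3* in the outer cells, TFAP2C acts beside them, and ELF5 and HAND1 come later, in trophoblast stem cells and giant cells. Keratin filaments are built from pairs of a type II chain (*Krt8*, *Krt7*) and a type I chain (*Krt18*, *Krt19*), and KRT8 with KRT18 is the first such pair made in the embryo.

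The 10 genes did not move together. *Cdx2* and *Krt8* fell in KO, to 60.6% and 63.6% of the WT mean, whereas *Tfap2c* rose to 157% of it. *Krt18*, the filament partner of *Krt8*, did not pass the test, nor did *Gata3*, *Tead4*, *Krt19* and *Krt7*. *Elf5* and *Hand1* had too few counts for an adjusted p. Thus 3 of the 8 genes with an adjusted p were under 0.05 with DESeq2, 1 higher and 2 lower, where 7.49% of the 15309 tested genes were (1146 genes, 2.7% of those tested being higher and 4.78% lower). For 4 of the 8 the libraries of WT and KO were apart, as for 25.6% of all tested genes. The median log2 fold change of the 8 was 0.15, and that of all tested genes was 0.01.

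Library depth was uneven. Replicates 1 and 2 held 37573923 to 47721070 counts and replicate 3 held 11040756 in WT and 11420268 in KO, with 14.4% and 12.5% of counts on the ribosomal precursor *Rn45s* against 1.79% to 3.03% in the other libraries. A floor of 3 counts equals 1.69 to 8.21 normalized counts (counts divided by the library's size factor), and it covers counting error only. *Patz1* itself, on chromosome 11, was lower in every KO library, at 45.5% of the WT mean (log2 fold change -1.14, SE 0.10, DESeq2 adjusted p 1.58e-26). Of the chromosome 11 genes tested, 86.6% were lower in KO (median log2 fold change -0.27) and 21.3% were called in either direction. With chromosome 11 centred in each library (size factors from its own genes), *Patz1* had a log2 fold change of -0.86 (DESeq2 adjusted p 1.4e-13). *Krt19* and *Hand1* lie on this chromosome, and the other 8 genes do not.

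**Figure D1:**
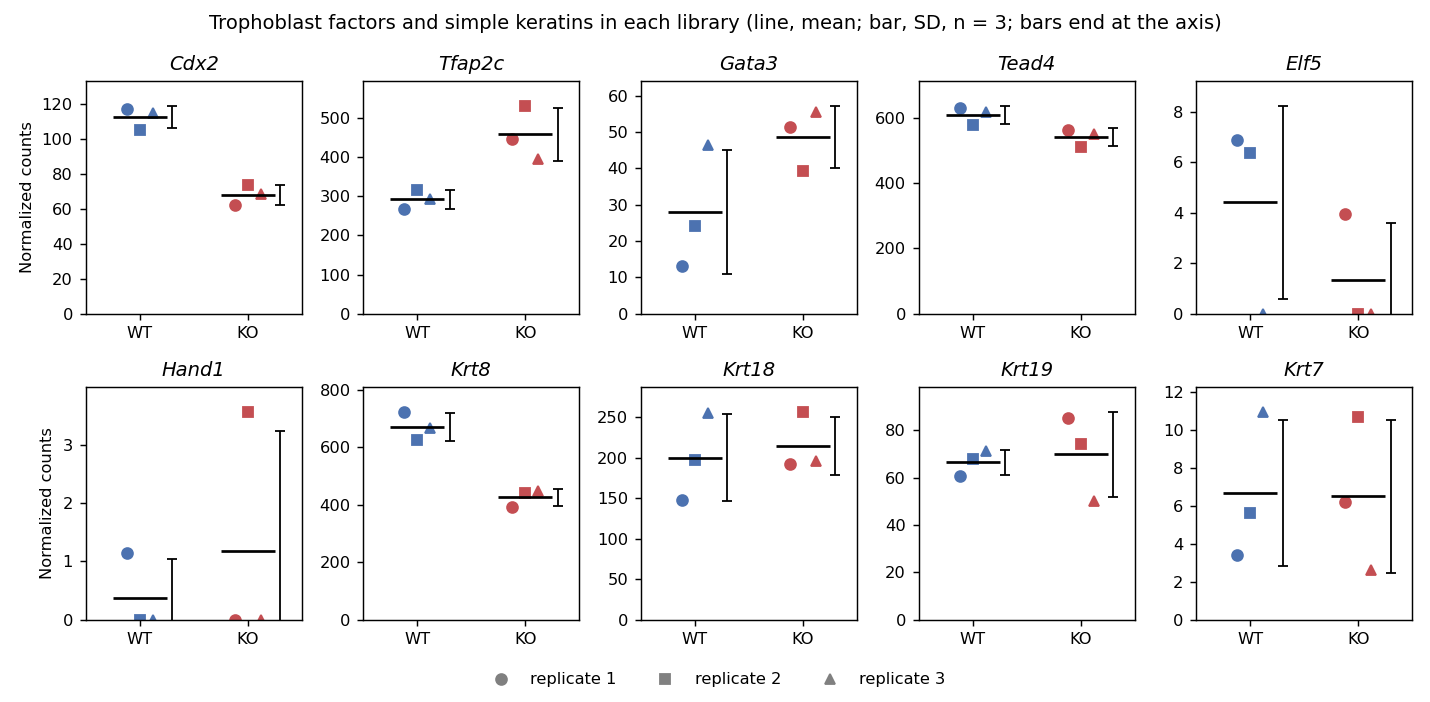
Normalized counts (vertical axes, linear, from 0) of the 10 genes in WT and KO, 1 point per library with its replicate number as the shape, the mean as a line and the SD as a bar (n = 3 libraries; bars are cut at 0). The WT and KO points are apart for *Cdx2*, *Tfap2c*, *Krt8* and *Tead4*, and mixed for the other genes.

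*Cdx2*, the homeobox factor that sets the trophectoderm apart from the inner cells, lies on chromosome 5 from 147300805 to 147307270 (minus strand, GRCm38, protein coding). Values are given in the order of replicates 1, 2 and 3. *Cdx2* had 117, 105 and 115 normalized counts in the WT libraries and 62.1, 73.5 and 68.7 in the KO libraries. All KO libraries were thus below all WT libraries, and the gap between the genotypes was wider than the range within either. The log2 fold change, KO over WT, was -0.72 (SE 0.24, DESeq2 adjusted p 0.0350). The raw counts behind it were modest, 26 to 205 per library. *Cdx2* kept its direction under all 15 alternative settings, but its adjusted p (DESeq2) was between 0.0593 and 0.291 in the 6 fits that each left out 1 library, so its call needed every library, and it was 0.0971 without replicate 3 of both genotypes. The size of the fall held in those fits, with log2 fold changes from -0.80 to -0.65 without 1 library and -0.72 without replicate 3. In bulk RNA, fewer cells that express a gene and less RNA per cell cannot be told apart.

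*Tfap2c* encodes the AP-2γ factor, used both in the trophoblast lineage and in germ cell precursors, and ESCs also express it. It lies on chromosome 2 from 172549593 to 172558622 (plus strand). The WT libraries had 268, 316 and 293 normalized counts and the KO libraries 447, 531 and 396. Every KO library was above every WT library, with replicate 2 the highest of each genotype. In KO over WT this gave a log2 fold change of 0.66 (SE 0.16, DESeq2 adjusted p 0.000919). Without KO replicate 2 it was 0.54 with an adjusted p of 0.0760, and it was under 0.05 in the other 14 alternatives.

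*Gata3*, a zinc finger factor that acts in parallel to *Cdx2*, lies on chromosome 2 from 9857078 to 9890034 (minus strand). It had 13.2, 24.0 and 46.5 normalized counts in the WT libraries and 51.4, 39.1 and 55.5 in the KO libraries. WT replicate 3 lay within the KO range, and the other WT libraries lay below it. Within the pairs of replicates 1, 2 and 3, KO was higher by 1.89, 0.68 and 0.25 on the log2 scale. The DESeq2 fit that pairs libraries by number gave an adjusted p of 0.102. *Gata3* had a log2 fold change of 0.94 (SE 0.43) with an unadjusted p of 0.0298 and an DESeq2 adjusted p of 0.209. Without WT replicate 3 the log2 fold change was 1.38 and the adjusted p 0.0195, so 1 library decided this call. In the other fits without 1 library the DESeq2 adjusted p was 0.391 to 0.777. The smallest log2 fold change among them was 0.55, without WT replicate 1. *Gata3* overlaps *9230102O04Rik* on its own strand and *4930412O13Rik* and *Gm13256* on the other, and how reads in the overlaps were assigned is not given in the sources used here, so its counts are uncertain.

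*Tead4*, the DNA-binding partner of YAP1 upstream of *Cdx2*, lies on chromosome 6 from 128224288 to 128300823 (minus strand). It had 630, 577 and 616 normalized counts in the WT libraries and 563, 509 and 550 in the KO libraries. Every KO library was below every WT library, but by a narrow margin. A log2 fold change of -0.17 (SE 0.12, DESeq2 adjusted p 0.564; 95% interval -0.41 to 0.07) did not pass the test. Fold changes as deep as those of *Cdx2* and *Krt8* lie outside this interval.

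*Elf5*, an ETS factor of trophoblast stem cells on chromosome 2, had raw counts of 12, 9 and 0 in the WT libraries and 7, 0 and 0 in the KO libraries. *Hand1*, a bHLH factor of giant cells on chromosome 11, had 2, 0 and 0 in WT and 0, 6 and 0 in KO. The libraries at or under the floor of 3 counts were 3 of 6 for *Elf5* and 5 of 6 for *Hand1*. A difference between the genotypes was not detectable at this depth for either gene.

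*Krt8*, the type II chain, lies on chromosome 15 from 101996698 to 102004482 (minus strand). It had 722, 624 and 665 normalized counts in the WT libraries and 393, 439 and 447 in the KO libraries. The genotypes were far apart, and the libraries within each were close. The log2 fold change was -0.66 (SE 0.13, DESeq2 adjusted p 2.77e-05), and *Krt8* was under 0.05 in all 15 alternatives, with log2 fold changes between -0.71 and -0.60. Among its 50-base stretches of exon, 26.9% also occur in *Krt8-ps*, a processed copy with no row in the tables, and 2.78% in the overlapping *Gm36026*. Part of the reads of *Krt8* could therefore have been lost or misplaced.

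*Krt18*, the type I chain that pairs with KRT8, is the neighbour of *Krt8*, from 102028180 to 102032027 on the plus strand, with the starts of both genes 23698 bases apart and pointing away from each other. It had 148, 197 and 255 normalized counts in the WT libraries and 192, 256 and 196 in the KO libraries. These libraries overlapped broadly, and WT was the more variable genotype. The fold change of *Krt18* was 0.15 on the log2 scale (SE 0.22, DESeq2 adjusted p 0.844; 95% interval -0.28 to 0.58). It was -0.038 without WT replicate 1 and -0.010 without KO replicate 2, so no direction can be given.

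*Krt19*, the shortest type I keratin, lies on chromosome 11 from 100140810 to 100148665 (minus strand). It had 60.6, 67.8 and 71.2 normalized counts in the WT libraries and 85.2, 74.1 and 50.2 in the KO libraries. KO held both the highest and the lowest library. Its log2 fold change was 0.14 (SE 0.28, DESeq2 adjusted p 0.895; 95% interval -0.41 to 0.70). It was 0.42 when chromosome 11 was centred in each library and -0.029 without KO replicate 1, without passing the test in either.

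*Krt7*, a type II keratin of simple epithelia and of the placenta, lies on chromosome 15 from 101411043 to 101430313 (plus strand). It was near the floor, with raw counts of 1 to 18 per library. Scaled for depth, the WT libraries had 3.43, 5.65 and 10.95 and the KO libraries 6.21, 10.7 and 2.64 normalized counts. The log2 fold change of 0.25 (SE 0.86, DESeq2 adjusted p 0.942) had a 95% interval from -1.44 to 1.95, and it was -0.14 without WT replicate 1 and -0.33 without KO replicate 2. A change of either sign was not detectable at this depth.

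**Figure D2:**
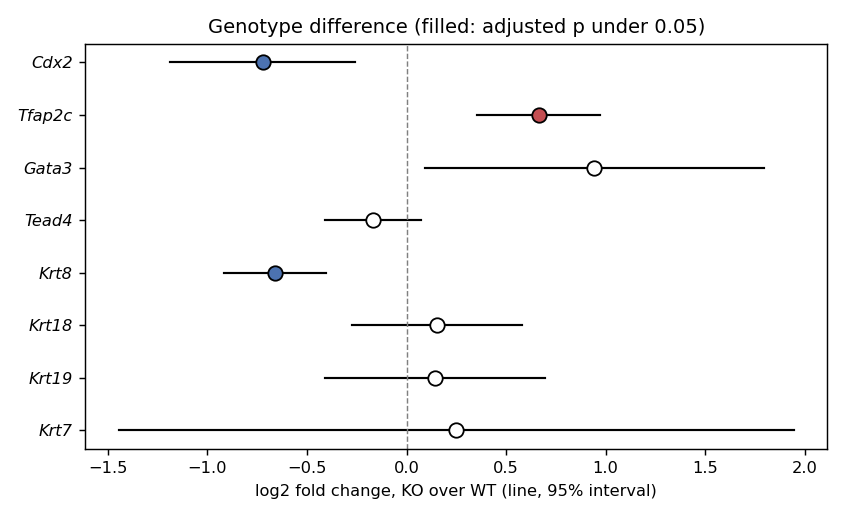
Log2 fold change, KO over WT (horizontal axis), of the 8 genes with an adjusted p, with the 95% interval as a line, filled points being those with an adjusted p under 0.05 (red, higher in KO; blue, lower in KO; DESeq2). *Cdx2* and *Krt8* lie left of 0 at -0.72 and -0.66, *Tfap2c* lies right of it at 0.66, and the interval of *Krt7* is the widest.

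To compare levels between genes, normalized counts were divided by the length of the exons in kilobases. On this per-kilobase scale WT means ran from *Krt8* (342) through *Tead4* (169), *Krt18* (139), *Tfap2c* (79.4), *Cdx2* (49.7), *Krt19* (35.9) and *Gata3* (7.01) to *Krt7* (0.947), *Elf5* (0.750) and *Hand1* (0.191). *Krt8* stood at the 81.7th percentile of the 19162 genes with a count and an exon length, and *Cdx2* at the 52.8th. In KO, *Krt8* (218) was still the highest and *Tead4* (150) and *Krt18* (149) were nearly level, with *Tfap2c* (125) above *Cdx2* (30.1) as in WT. The mean of *Cdx2* was below that of *Krt19* (37.7) in KO and above it in WT, but in KO replicate 3 *Cdx2* (30.4) was above *Krt19* (27.1).

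To ask whether the pair that forms the first filaments kept its balance, the log2 ratio of *Krt8* to *Krt18* normalized counts (each plus 1) was compared. It was 2.28, 1.66 and 1.38 in the WT libraries and 1.03, 0.78 and 1.19 in the KO libraries. Every KO library had the lower ratio, although WT replicate 3 was close to KO replicate 3. Its mean was 1.77 ± 0.46 over WT and 1.00 ± 0.21 over KO libraries (mean ± SD, n = 3), a difference of -0.78 with an exact two-sided permutation p of 0.1, the smallest that 3 against 3 libraries can give. Within the pairs of replicates 1, 2 and 3 the difference was -1.25, -0.88 and -0.19, all in 1 direction (exact paired permutation p 0.25, the smallest that 3 pairs can give). *Krt8* made up 66.4% to 77.3% of the summed normalized counts of the 4 keratins in WT and 56.3% to 64.3% in KO. That sum was 894 to 1002 in WT and 676 to 781 in KO, so the lower *Krt8* was not offset by the other 3 keratins.

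**Figure D3:**
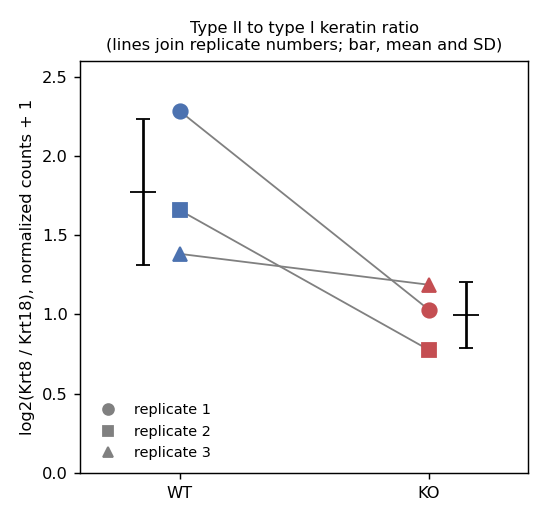
Log2 ratio of *Krt8* to *Krt18* (vertical axis, normalized counts plus 1) in each library, with lines joining the same replicate number and bars for mean and SD (n = 3). The ratio is lower in KO in each pair, by 1.25 at most in replicate 1 and by 0.19 at least in replicate 3 on the log2 scale.

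To ask which genes followed the same course over the libraries, log2(normalized count + 1) was centred on its mean over the 6 libraries for each of the 6 genes with a mean of at least 50 normalized counts, and compared with the 11523 other genes at that level by the root mean square (RMS) difference. *Krt8* was the 2nd nearest gene to *Cdx2* (RMS difference 0.05), after *Gpr179* on chromosome 11. *Cdx2* was the 3rd nearest to *Krt8*, after *Vps54* and *Tmem107*, also on chromosome 11. The counting error of *Cdx2* alone, 0.28 on the log2 scale in its shallowest library, exceeded this RMS difference, so such ranks are a description of these libraries only. Centred values include the step from WT to KO, so genes with a like fold change rank near each other by this measure. The log2 ratio of *Cdx2* to *Krt8*, looked at after their values had been seen, stayed between -2.68 and -2.52 in all 6 libraries. The drop from WT to KO in replicates 1, 2 and 3 was 0.91, 0.51 and 0.73 for *Cdx2* and 0.88, 0.50 and 0.57 for *Krt8* on the log2 scale, in both cases most in replicate 1.

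The other 4 genes ranked lower. *Tfap2c* ranked 11139th of 11523 by nearness to *Cdx2*, *Krt18* 9468th, *Krt19* 8853rd and *Tead4* 1619th. The log2 ratio of *Cdx2* to *Tfap2c* was between -1.58 and -1.19 in WT and between -2.83 and -2.51 in KO. The nearest genes were *Pea15a* and *Slc2a1* for *Tfap2c*, *Sf3a1* and *Rbm19* for *Tead4*, *Gm5801* and *Irx2* for *Krt18*, and *Casq2* and *Sh2d5* for *Krt19*.

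**Figure D4:**
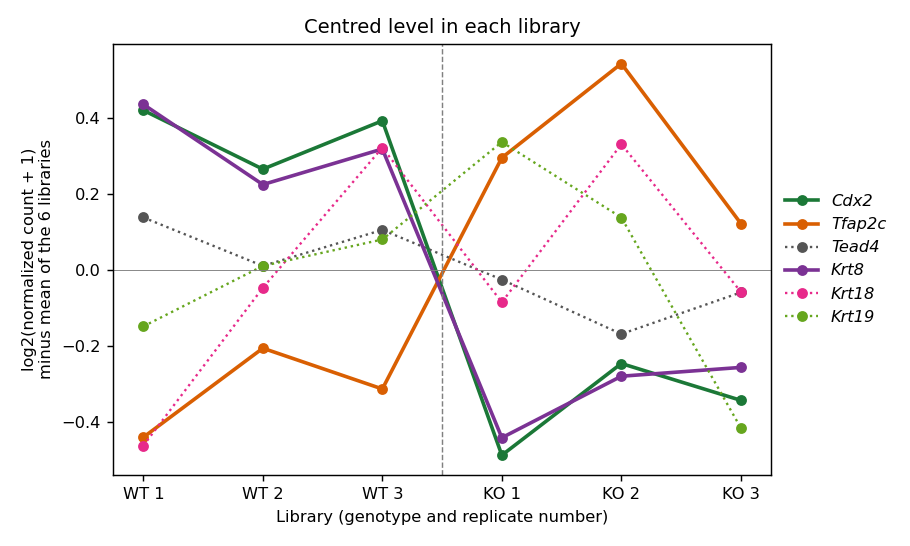
Log2(normalized count + 1) minus the gene's mean over the 6 libraries (vertical axis) in each library (horizontal axis, WT left and KO right of the dashed line) for the 6 genes with a mean of at least 50 normalized counts; solid lines are genes with an adjusted p under 0.05. *Cdx2* and *Krt8* run close together, with an RMS difference of 0.05, and *Tfap2c* crosses them. *Krt18* varies more within WT than between the genotype means.

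Since *Cdx2* and *Krt8* fell, and *Krt18* is the neighbour and filament partner of *Krt8*, the 250 bases before the RefSeq start of these 3 genes are shown (GRCm38.p6, gene strand, 5′ to 3′). RefSeq and GENCODE place some of these starts differently. PATZ1 and the related factor MAZ bind G-rich DNA, and capitals mark GGGAGGG, the run searched for on both strands (CCCTCCC on the other).
*Krt8*, chr15:102004343-102004592, minus strand: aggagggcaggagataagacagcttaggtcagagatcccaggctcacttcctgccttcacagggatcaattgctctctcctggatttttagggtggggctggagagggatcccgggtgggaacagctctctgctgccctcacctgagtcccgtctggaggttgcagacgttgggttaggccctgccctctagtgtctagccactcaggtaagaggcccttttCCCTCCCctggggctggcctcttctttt
*Cdx2*, chr5:147307250-147307499, minus strand: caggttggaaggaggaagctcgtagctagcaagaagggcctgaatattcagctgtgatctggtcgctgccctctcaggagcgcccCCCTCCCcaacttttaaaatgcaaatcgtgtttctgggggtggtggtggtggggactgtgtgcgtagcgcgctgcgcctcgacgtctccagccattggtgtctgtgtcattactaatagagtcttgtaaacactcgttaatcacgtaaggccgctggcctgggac
*Krt18*, chr15:102027966-102028215, plus strand: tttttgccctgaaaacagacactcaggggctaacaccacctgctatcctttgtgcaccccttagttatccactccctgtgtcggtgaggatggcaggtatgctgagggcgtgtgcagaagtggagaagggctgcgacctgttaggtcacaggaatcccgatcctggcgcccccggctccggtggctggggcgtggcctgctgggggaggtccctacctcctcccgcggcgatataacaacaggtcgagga
The run was read as CCCTCCC at positions -28 to -22 before the RefSeq start of *Krt8* and at -165 to -159 before that of *Cdx2*. GENCODE places the start of *Krt8* at 102004482, further upstream, so by that annotation the *Krt8* run lies inside the gene. The *Cdx2* run lies upstream of its start in both annotations. No such run was found in the window of *Krt18*, nor in those of *Gata3*, *Krt7* and *Elf5* (2 windows). Of all 32851 promoter windows of this length, 19.7% held it. A match is a description of the letters and shows no binding. *Tfap2c*, *Hand1*, *Tead4* and *Krt19* were not among the windows.

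To place the 10 genes among their relatives, 5 lists of other genes were compared. Over all tested genes, 7.49% were called, 13.9% were under an unadjusted p of 0.05 and 14.6% were called with the replicate block, the fit that pairs libraries by number. Among 25 further genes of the trophoblast lineage, 18 had an adjusted p, of which 1 was higher and 1 lower (11.1%). Of the 18, 14 had a log2 fold change above 0 and 4 below (median 0.16, against 0.01 over all tested genes). Under an unadjusted p of 0.05 there were 6 of the lineage genes, and the block called 3, adding *Bmp4*. *Fgfr2*, the receptor through which FGF4 sustains trophoblast stem cells, had 20.6, 38.1 and 38.3 normalized counts in the WT libraries and 52.5, 87.2 and 81.9 in the KO libraries. All KO libraries were above all WT libraries (log2 fold change 1.23, SE 0.36, DESeq2 adjusted p 0.0131), but the call was lost with edgeR (adjusted p 0.0552), with limma-voom (0.0513) and without WT library 1, KO library 2 or KO library 3, the adjusted p reaching 0.255. *Sox15*, an HMG factor of ESCs and giant cells on chromosome 11, fell by 0.72 on the log2 scale (SE 0.25, DESeq2 adjusted p 0.0486). With chromosome 11 centred the adjusted p of *Sox15* was 0.427, with TMM size factors 0.0506, with independent filtering off 0.0614 and without replicate 3 of both genotypes 0.108, and it was above 0.05 without any 1 library (up to 0.432).

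*Eomes*, a T-box factor of trophoblast stem cells, was at 701 ± 98.6 in WT cells and 615 ± 124 in KO cells in normalized counts (mean ± SD, n = 3; log2 fold change -0.19, DESeq2 adjusted p 0.669). It did not pass the test. *Tpbpa*, *Prl3d1*, *Prl2c2*, *Ctsq* and *Synb*, genes of the differentiated placenta, had 0 counts in all 6 libraries, which allows up to 3 counts in each.

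In the Hippo pathway, whose kinases hold back YAP1 and TEAD4, 19 of 20 genes had an adjusted p, and 2 were higher and 0 lower (10.5%, against 7.49% of all tested genes). In either direction, 5 were under an unadjusted p of 0.05. The replicate block called 5, 3 higher and 2 lower, adding *Tead2* (higher) and *Yap1* and *Wwtr1* (lower). *Amot*, a junction protein that binds YAP1, had 73.8, 69.2 and 101 normalized counts in the WT libraries and 130, 169 and 151 in the KO libraries, a rise (log2 fold change 0.94, SE 0.23, DESeq2 adjusted p 0.00196). The genotypes did not overlap. *Amot* is on the X chromosome, where 86.0% of the 107 tested genes within 10 Mb of it were higher in KO (median log2 fold change 0.43). Its call was lost without WT library 1, WT library 2 or KO library 2 (adjusted p up to 0.105).

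*Cyr61*, a target of YAP and TEAD, rose by 0.61 on the log2 scale (SE 0.17, DESeq2 adjusted p 0.00804), from 232 ± 42.5 to 349 ± 20.7 normalized counts (mean ± SD, n = 3). It lost its call without replicate 1 or 2 of either genotype (adjusted p up to 0.182). *Ctgf*, a target of the same pair, had a log2 fold change of -0.05 (adjusted p 0.935), and *Yap1* one of -0.24 (DESeq2 adjusted p 0.135), neither passing the test, although the block called *Yap1* lower (DESeq2 adjusted p 0.00279). *Ankrd1*, also a target, was near the floor and had no adjusted p, with 3.43, 4.24 and 8.21 normalized counts in the WT libraries and 1.13, 0.593 and 0 in the KO libraries.

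Of 20 genes of epithelial junctions and keratin anchoring, all with an adjusted p, 1 was higher and 3 were lower (20% called, against 7.49% of all tested genes). Under an unadjusted p of 0.05 there were 7, and the replicate block called 6, 2 higher and 4 lower, adding *Cldn4* (higher) and *Ocln* (lower), while limma-voom added *Cldn7* (lower, adjusted p 0.0413). *Pkp2*, a plakophilin that links desmosomes to keratin filaments, had 1759, 1804 and 1555 normalized counts in the WT libraries and 1152, 1294 and 1263 in the KO libraries. It fell without overlap (log2 fold change -0.47, SE 0.11, DESeq2 adjusted p 0.000654) and was under 0.05 in all 15 alternatives. *Dsp*, desmoplakin, which carries the filaments to the junction, had 209, 304 and 233 normalized counts in the WT libraries and 284, 500 and 494 in the KO libraries, so KO replicate 1 lay within the WT range. It was called higher (log2 fold change 0.76, SE 0.22, DESeq2 adjusted p 0.0118), but not with edgeR (0.102), limma-voom (0.150), without replicate 3 of both genotypes (0.572), or without WT library 1, KO library 2 or KO library 3 (up to 0.223).

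*Ezr*, ezrin of the apical membrane, fell by 0.32 (SE 0.09, DESeq2 adjusted p 0.00985), and the call was lost without replicate 1 or 2 of either genotype (up to 0.118). *Jup*, plakoglobin on chromosome 11, fell by 0.31 on the log2 scale (SE 0.09, adjusted p 0.0157), with an adjusted p of 0.944 once chromosome 11 was centred, and up to 0.218 without replicate 1 or 2 of either genotype. *Cdh1*, E-cadherin, had a log2 fold change of 0.12 (DESeq2 adjusted p 0.565) and did not pass the test.

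Among 11 factors that keep ESCs from the trophoblast fate, such as *Pou5f1*, *Nanog*, *Setdb1* and *Dnmt1*, 0 were called by DESeq2, edgeR or limma-voom. Under an unadjusted p of 0.05 there were 0, while the replicate block called 2, *Pou5f1* higher and *Uhrf1* lower. The shares over all genes were 7.49% by DESeq2, 13.9% under that unadjusted p and 14.6% with the block. *Pou5f1*, which represses *Cdx2* in ESCs, was at 32176 ± 1842 normalized counts in WT cells and 35441 ± 885 in KO cells (mean ± SD, n = 3; log2 fold change 0.14, DESeq2 adjusted p 0.454, and 0.0405 with the block). Of 48 other keratin genes, 31 were at or under 3 counts in every library and 8 had an adjusted p. Of these 0 were called by DESeq2, edgeR, limma-voom or with the block, and 0 were under an unadjusted p of 0.05. The most abundant by mean count was *Krt42*, at 554 ± 130 normalized counts in WT cells and 484 ± 42.0 in KO cells (mean ± SD, n = 3; adjusted p 0.615).

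**Figure D5:**
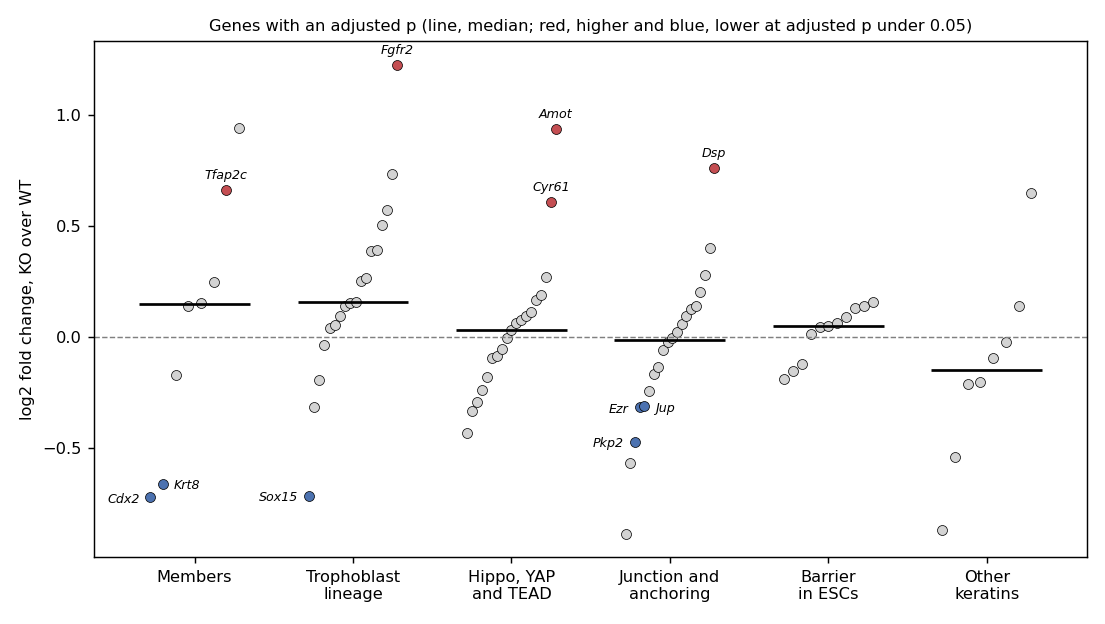
Log2 fold change, KO over WT (vertical axis), of each gene with an adjusted p in the 10 genes described here (members) and in 5 lists of relatives, with the list's median as a line (red and blue: higher and lower in KO at an adjusted p under 0.05, DESeq2). Called genes lie on both sides of 0 among the members, the trophoblast lineage genes and the junction genes. The barrier genes and other keratins hold no called gene, with 11 and 8 genes tested, and 7.49% of all tested genes called.

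The label of ESCs was checked against marker genes. All 10 ESC markers were expressed and 0 were called by DESeq2, edgeR or limma-voom (2 under an unadjusted p of 0.05, against 13.9% of all genes). The replicate block called 4 of them higher, *Pou5f1*, *Zfp42*, *Tdgf1* and *Fgf4*, against 14.6% of all tested genes in either direction. Their summed normalized counts were 138675 to 143046 in WT and 149672 to 155108 in KO. Of the 10 ESC markers, 9 had a log2 fold change above 0 and 1 below (median 0.13, against 0.01 over all tested genes). Of 12 primitive endoderm markers, 10 had an adjusted p and 2 of these were higher (20%, against 7.49% of all tested genes), *Lamb1* (log2 fold change 0.85) and *Dab2* (1.33, its call lost without WT replicate 1 or 2), with *Afp* at or under 3 counts and sums of 9861 to 10747 in WT and 10925 to 11966 in KO. *Foxa2* had 0 counts in the WT libraries and 12.4, 4.15 and 5.29 normalized counts in the KO libraries. It had no adjusted p by default and was called with independent filtering off (DESeq2 adjusted p 0.0204) and with chromosome 11 centred (0.0194), which also called *Sparc*. Of the 10 with an adjusted p, 5 had a log2 fold change above 0 and 5 below (median 0.02), and *Sox17* (-0.83), *Pdgfra* (-0.51), *Lama1* (-0.18, KO below WT in every library) and *Gata4* (-0.17) did not pass the test. Of 10 fibroblast markers, 6 had an adjusted p and *Acta2* (2.31) and *Thy1* (0.83) were higher (33.3%, with *Fn1* called lower by the block in addition, DESeq2 adjusted p 0.000823), while *Col3a1*, *Postn* and *Dcn* were at or under 3 counts and the sums were 8715 to 9690 in WT and 7246 to 8723 in KO. Of the 6, 2 had a log2 fold change above 0 and 4 below (median -0.19), with *Col1a2* at -0.90, *Col1a1* at -0.23 and *Pdgfrb* at -0.16, none of which passed the test. The call of *Thy1* was lost in 5 of the 6 fits without 1 library, the exception being that without WT replicate 3. The 7 neural markers gave 0 calls by DESeq2, edgeR or limma-voom (1 under an unadjusted p of 0.05). This was *Nes*, nestin, lower in every KO library (log2 fold change -0.54, DESeq2 adjusted p 0.0509), which was called with the count minimum, with the replicate block (0.000235), without replicate 3 of both genotypes and without KO replicate 3. The sums of the neural list were 4551 to 5405 in WT and 4445 to 5615 in KO. The part of such cells in the fall of *Cdx2* and *Krt8* and the rise of *Tfap2c* was not tested.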

How the data were processed

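Counts per gene symbol, 1 file for each of 6 libraries and not normalized, were deposited by the authors. The submitters' processing notes name TopHat2 2.1.1, Bowtie2 2.3.1.0, featureCounts 1.6.2, DESeq2 and the mm10 build, without roles. The annotation, the strand setting and the treatment of duplicate reads are not given in the sources used here. Each of the 23420 symbols was kept, and 19404 had a count.

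Genotypes, taken from sample titles, were compared with the two-sided Wald test of DESeq2 1.42.0 (R 4.3.3) at an adjusted p of 0.05 (Benjamini-Hochberg over all tested genes), as in the study's methods, with genotype alone, median-of-ratios size factors, independent filtering at its default of 0.1 and no shrinkage. A first fit dropped symbols without counts and called 1145 genes; they were then kept, with the study's count and an earlier result of these data in view. The same 3 of the 10 genes were called either way. Alternatives were edgeR 4.0.16, limma-voom (limma 3.58.1), TMM size factors, a minimum of 10 counts in 3 or more libraries, independent filtering off, a threshold of 0.01, a pseudocount of 0.5 in the keratin ratio, chromosome 11 centred in each library, a replicate block, and fits without single libraries or without replicate 3. Code was tested on simulated data. Positions and lengths came from GENCODE M21 (GRCm38, the mm10 build), promoter sequences from RefSeq.

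The libraries were paired by number, since over 11524 genes the WT and KO libraries of 1 number deviated from their genotype means with correlations of 0.469, 0.619 and 0.684. This pairing rests on the titles' numbers and those values. The study calls the replicates biological, and the labels do not say what separated them (cultures, passages or days), so p-values measure the spread between these libraries. Totals per library were 11040756 to 47721070. Every library differed from each other one by more than sampling noise.

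The 10 genes and the lists were chosen with earlier results of these data known. Named are the 10 genes, *Patz1*, list genes under the threshold (at most 5 a list and direction), and the 2 genes nearest in profile. *Eomes*, *Ctgf*, *Yap1*, *Cdh1*, *Krt42*, *Pou5f1*, *Ankrd1*, *Foxa2*, *Nes*, other markers that did not pass the test, some genes called only in an alternative and placental genes at 0 were named after their values were seen, as were the ratios other than *Krt8* to *Krt18*. A value of 1 neural marker is not reported here.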

Additional observations from a re-analysis of the deposited data

How the results depend on the processing

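Over all genes, the count of 1146 became 719 at an adjusted p of 0.01, 2131 under the replicate block and 583 to 1341 without 1 library (605 and 664 without WT replicates 1 and 2, 583 and 590 without KO replicates 1 and 2). Leaving out symbols with no counts, an alternative chosen after the data were seen, gave 1145. Of the 10 genes, 1 to 3 were called without 1 library, *Krt8* alone without KO replicate 2. The block kept the calls of *Cdx2*, *Tfap2c* and *Krt8* and added no other of the 10, and the difference in the *Krt8* to *Krt18* log2 ratio is -0.78 with the pairing by construction.

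Signs turned for log2 fold changes that had not passed the test: *Krt18* (-0.038 without WT replicate 1, -0.010 without KO replicate 2, up to 0.33 without another library), *Krt19* (-0.029 without KO replicate 1, up to 0.28) and *Krt7* (-0.14 without WT replicate 1, -0.33 without KO replicate 2, up to 0.64), and for *Hand1*, which had no adjusted p (1.21 with all libraries, -1.30 without KO replicate 2). The causes were not tested. The *Krt8* to *Krt18* difference ran from -0.97 to -0.52 without 1 library and was -1.07 without replicate 3 of both genotypes. Depth limits *Elf5*, *Hand1* and *Krt7*.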
